A study of Capra hircus with 3 samples.

Results

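Among the 7325 barcodes kept in the library labelled E125, 112 carried the RNA of oocyte-like cells. They were chosen by 4 limits: at least 1000 unique molecular identifiers (UMIs), at most 20% of UMIs from mitochondrial genes, ZP3 at 0.2% of UMIs or more, and at least 3 FIGLA UMIs. The 112 members were 1.53% of the kept barcodes of that library (exact Clopper-Pearson interval 1.26 to 1.84) and held 21.4% of its kept UMIs. The same limits found 0 of 6376 barcodes in the library labelled E85 and 0 of 7124 in the library labelled E105. The exact Clopper-Pearson intervals allow shares of up to 0.0578% and 0.0518%. All 3 libraries together had 20825 kept barcodes. The contents of the library labelled E125 go against its label, which names testis tissue and male sex.

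The series is droplet single-cell RNA sequencing of fetal goat (Capra hircus) gonads, with 1 library for each of the embryonic (E) stages E85, E105 and E125. All 3 libraries are labelled as male testis, with no genotype, strain or treatment, and each is replicate 1. How many animals went into a library is not stated in the labels. The tissue was dissociated with collagenase, hyaluronidase, trypsin and DNase and counted at the 3′ end of transcripts. Because each stage is a single library, no comparison below has a replicate check, and no p-value is given. Stage, library and the sex of the gonad cannot be told apart in any comparison of the members with cells of the other libraries.

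An oocyte is the female germ cell. It enters meiosis before birth, stops in prophase of the first meiotic division and is enclosed by pregranulosa cells in a primordial follicle, where it waits or begins to grow. A growing oocyte enlarges many times, secretes the glycoproteins of the zona pellucida around itself and stores RNA and protein that the embryo uses after fertilisation. FIGLA and LHX8 are transcription factors needed for follicle formation and for the activity of zona genes. In the fetal testis, germ cells instead become prospermatogonia, which stop in mitotic quiescence and enter meiosis only after birth.

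The deposited matrices held 7478, 8520 and 8346 barcodes for E85, E105 and E125, with 45339231, 40741902 and 49692252 UMIs. The libraries pairwise shared between 9 and 14 barcode sequences, and 0 of the 112 members were among them. SRY had 0 UMIs in the members and also 0 in the germ cells of E85 and E105, so it does not separate the libraries here. The germ cells used for comparison were barcodes with at least 2 DDX4 and 2 DAZL UMIs, 210 in E85 and 83 in E105. Other classes of the library labelled E125 were 305 barcodes rich in FST (at least 0.1% of UMIs and 3 UMIs), the follistatin gene of pregranulosa cells, and 916 barcodes with at least 2 of 5 endothelial genes. Levels are UMIs of a gene per 1000000 UMIs of the class (CPM), intervals are exact at 95%, and both cover counting error only.

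ZP3 and FIGLA chose the members, so their levels are a description. ZP3, a structural protein of the zona pellucida, stood at 9527 CPM (interval 9467 to 9586) in the members and at 92.3 CPM in the rest of the library labelled E125. FIGLA stood at 3608 CPM (interval 3571 to 3645) in the members and at 26.1 CPM in the rest. Among barcodes with at least 3 FIGLA UMIs, few lay close to the ZP3 limit. The lowest ZP3 shares among members were 0.248%, 0.263% and 0.273%, and the highest share among barcodes that had 3 FIGLA UMIs but missed the ZP3 limit was 0.133%, in a barcode of 30058 UMIs with 17 FIGLA UMIs. Of 126 barcodes with at least 3 FIGLA UMIs, 14 missed the ZP3 limit, and of 138 barcodes at the ZP3 limit, 26 had fewer than 3 FIGLA UMIs. Exactly 3 FIGLA UMIs were found in 3 members, and 7 barcodes at the ZP3 limit had 2, with 1034 to 4571 UMIs each. The FIGLA limit cut closer: at least 1 or at least 5 FIGLA UMIs in place of 3 gave 123 or 102 members. At low totals the FIGLA limit asks for a high share of UMIs, so ZP3 and FIGLA are not compared between the size classes.

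The members spanned totals from 1048 to 283741 UMIs, with a median of 89170.5, against a median of 3291 UMIs in the rest of the library. The 30 barcodes of highest total in the library were all members, as were 48 of the highest 50. The largest barcode outside the members had 138221 UMIs. Of the 59 barcodes outside the members with at least 50000 UMIs, 1 had 47 ZP3 UMIs, the others had 5 or fewer, and none had more than 2 FIGLA UMIs. Members were many at low and at high totals and fewer between. Between 1000 and 10000 UMIs there were 34 members (11 below 2000, 16 from 2000 and 7 from 5000), 3 lay from 10000 to 20000 and 8 from 20000 to 50000, and 67 lay at 50000 or more. Doublets were neither called nor removed, so barcodes that hold an oocyte and a second cell may be among the members.

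**Figure D1:**
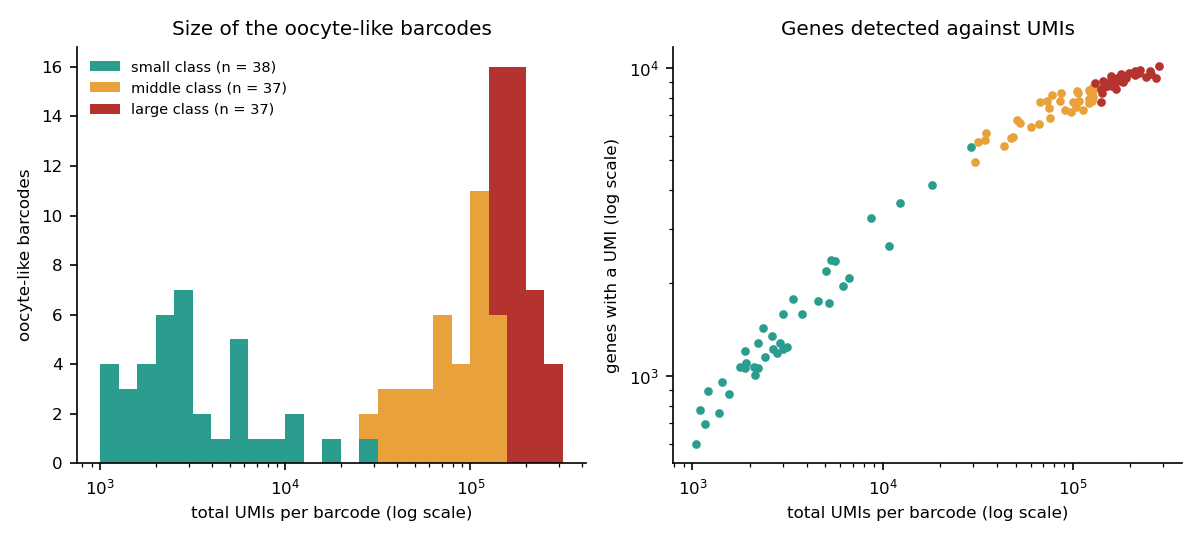
Left, number of the 112 oocyte-like barcodes by total UMIs (log scale), stacked by size class of 38, 37 and 37 barcodes; right, genes with a UMI against total UMIs, both on log scales, 1 point per barcode. The small class ends at 29026 UMIs, the middle class runs from 30749 to 128983 and the large class from 130536 to 283741.

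The members were split by total UMIs into 3 size classes of nearly equal number. The small class of 38 barcodes had a median of 2717.5 UMIs and 1256 genes with a UMI. The middle class of 37 had medians of 91431 UMIs and 7755 genes, and the large class of 37 had medians of 180332 UMIs and 9263 genes. By comparison the germ cells of E85 and E105 had medians of 19947 and 20231 UMIs, the FST-rich barcodes 7854 and the endothelial barcodes 6086. The mitochondrial share of UMIs had medians of 1.16%, 3.40% and 1.86% in the small, middle and large classes, and its range was widest in the small class, from 0% to 19.6%. All small members together held 174820 UMIs, against 3242634 and 6875147 in the middle and large classes, so levels in the small class are the least precise.

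The summed RNA of the small members resembled that of the larger ones more than that of any other class compared. Across 4022 genes at 50 CPM or more in any of 7 classes, the summed profile of the small class correlated at r = 0.92 with the middle class and 0.89 with the large class on a scale of log2(CPM + 10). Its correlation was 0.49 with the FST-rich barcodes, 0.37 with the endothelial barcodes and 0.51 with the germ cells of E85 and E105. These correlations run across genes, which are not replicates, and classes of 1 library share its free RNA. Each barcode was then thinned to 2000 UMIs, which left out 11 small members and no others. The thinned members had medians of 1010, 1056 and 1058 genes in the small, middle and large classes, against 876 in the FST-rich and 956.5 in the endothelial barcodes. Whether small members are whole cells was not tested.

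Of the markers other than ZP3 and FIGLA, ZP4 and LHX8 followed the label of oocyte-like cells, while BMP15 was low and missing from some larger members. ZP4, another zona glycoprotein, stood at 1633 CPM (interval 1609 to 1658) in the members and at 15.1 CPM in the rest of the library. LHX8 stood at 638 CPM (interval 622 to 653) against 7.85 CPM in the rest. BMP15, a growth factor that oocytes secrete, was low, at 34.3 CPM (interval 30.8 to 38.1) against 0.423 CPM in the rest. The members of 272873 and 283741 UMIs, for example, had 0 BMP15 UMIs. At least 1 ZP4 UMI was found in 28 of 38 small members and in all 74 larger ones, and at least 1 LHX8 UMI in 30 of 38 small members and in all 74 larger ones. In the endothelial barcodes, which should lack both genes, 71 of 916 had a ZP4 UMI and 41 of 916 an LHX8 UMI at a median depth of 6086 UMIs.

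At 2000 UMIs per barcode the share of barcodes with ZP4 was 70.4%, 86.5% and 89.2% in the small, middle and large classes, against 2.87% in endothelial barcodes. The share with LHX8 was 77.8%, 72.97% and 75.7%, against 1.79%. Both shares were many times the free-RNA level in each size class. In endothelial barcodes ZP3 stood at 59.9 CPM and ZP4 at 16% of ZP3, close to the 17.1% in members. REC8 stood at 22.96% of ZP3 there and at 8.17% in members.

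**Figure D2:**
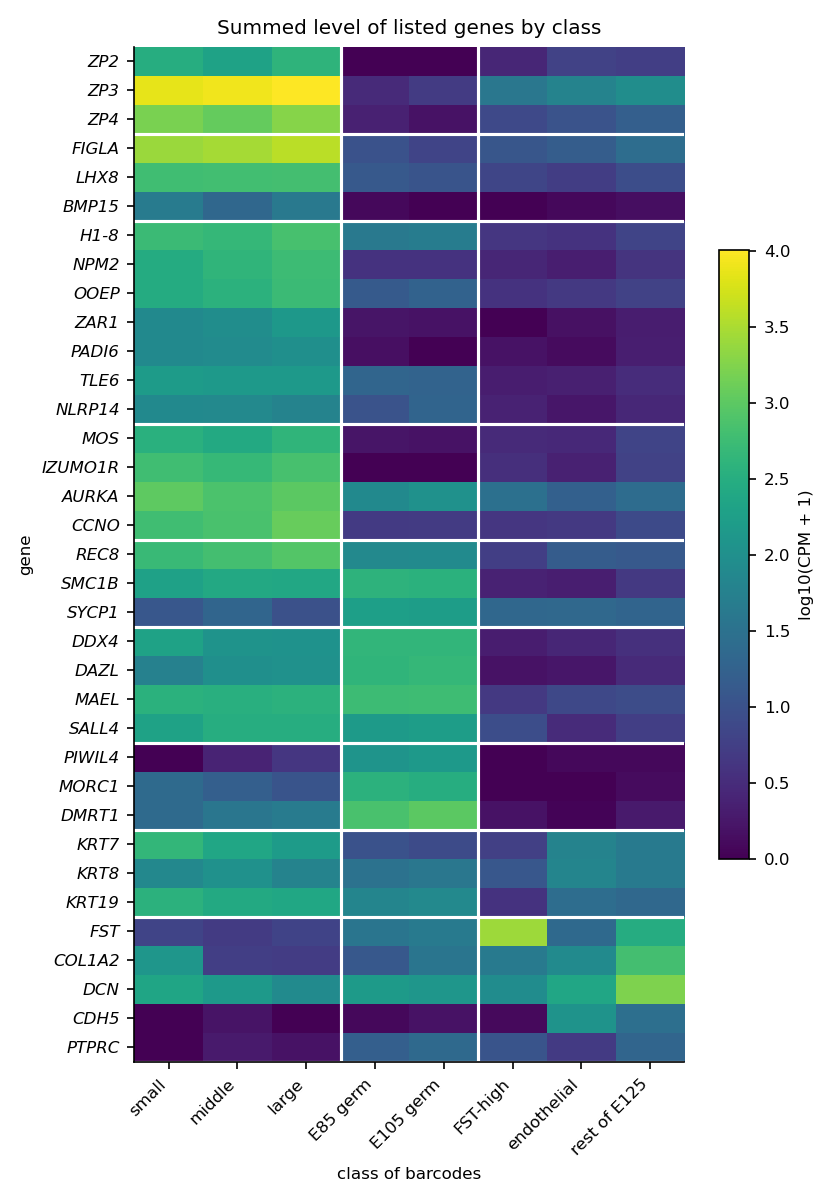
Summed level of listed genes as log10(CPM + 1), by colour, in the small, middle and large oocyte-like classes, the germ cells of E85 and E105, and the FST-rich, endothelial and all other barcodes of the library labelled E125. Zona genes and egg-store genes are bright in the 3 oocyte-like columns, PIWIL4, MORC1 and DMRT1 in the germ cells of E85 and E105, and FST in the FST-rich barcodes.

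All 3 zona genes with a symbol were present in the members at every size. Per barcode, ZP4 ranged from its lowest through its median to its highest value as 0, 1214 and 6098 CPM in the small class, where 1 UMI weighs heavily because totals are low. The same values were 138, 1033 and 2254 CPM in the middle class and 90.5, 1809 and 4229 CPM in the large class. The 3 classes overlapped, with the large class centred highest. ZP2, the zona protein that is cleaved after fertilisation, had summed levels of 315, 201 and 405 CPM in the small, middle and large classes, and 21 of 38 small members had a UMI. None of the 293 germ cells of E85 and E105 had a ZP2 UMI.

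The transcription factor genes split in their relation to the earlier germ cells. LHX8 was nearly level across size, at 606, 618 and 648 CPM, and in the germ cells it stood at 11.7 CPM. Per barcode LHX8 had a lowest, median and highest value of 32.5, 602 and 1191 CPM in the middle class and 356, 599 and 1301 CPM in the large class, which overlapped almost fully. TAF4B, a subunit of a germ-cell form of the TFIID complex, ran the other way, at 15.3 CPM in members against 72.2 CPM in the germ cells. TBPL2, the oocyte relative of the TATA-binding protein, stood at 29.6 CPM in members and 2.09 CPM in the germ cells. Of the secreted factors, GDF9, the partner of BMP15, reached only 4.08 CPM (interval 2.94 to 5.52), and OOSP2 had no UMI.

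**Figure D3:**
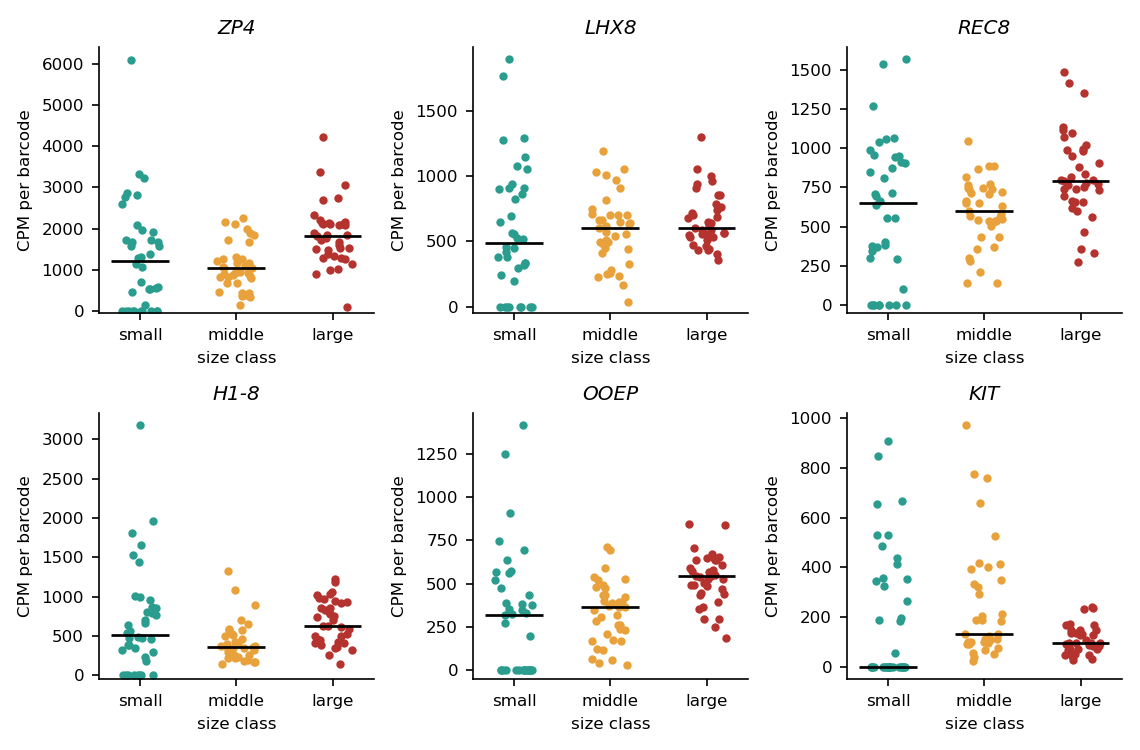
CPM per barcode of 6 genes in the small, middle and large oocyte-like classes (38, 37 and 37 barcodes, 1 point each, horizontal line at the median). Small-class points are spread by low totals, and OOEP is centred highest and KIT narrowest in the large class.

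Genes whose products are stored in the egg were high in all size classes. For the 3 comparisons by ratio, a gene counted as measured at 50 CPM or more in either class. It counted as higher or lower at a ratio of at least 2 or at most 0.5. Where a gene reached 50 CPM only in its higher class, this filter fixed its direction, so counts by list are a description. Of 21 maternal-effect genes on the list, 14 had a symbol and 10 were measured. All 10 were higher in members than in the germ cells of E85 and E105, with a median log2 ratio of 4.46. Most of these, such as NPM2, H1-8 and OOEP, were under 50 CPM in the germ cells and entered through the members. Over all 3075 genes measured in that comparison 25.7% were higher, 31.3% were lower and the median log2 ratio was -0.20. NPM2, a histone chaperone of the egg, stood at 512 CPM (interval 498 to 526) against 2.89 CPM, 177-fold higher (interval 112 to 299). H1-8, the oocyte linker histone, stood at 618 CPM (interval 603 to 634) against 42.05 CPM, 14.7-fold higher (interval 12.99 to 16.7). OOEP, a member of the subcortical maternal complex beneath the egg membrane, stood at 482 CPM (interval 469 to 496) against 13.8 CPM.

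Other genes of that list were also higher in members than in the germ cells. PADI6 and TLE6, further parts of the subcortical complex, had 93.5 and 141 CPM in members against 0.321 and 18.9 CPM in the germ cells. ZAR1, which holds maternal RNA in store, had 120.1 against 0.642 CPM. UCHL1, a deubiquitinating enzyme of germ and nerve cells, had 1544 against 358 CPM. Per barcode, OOEP had a lowest, median and highest value of 32.99, 365 and 713 CPM in the middle class and 184, 542 and 842 CPM in the large class. NPM2 had 20.7, 397 and 707 CPM and 104, 515 and 997 CPM. For both genes the ranges overlapped and the large class was centred higher.

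Some genes of the later meiotic divisions and of fertilisation were high in the members and others were low. MOS, the kinase that later holds the egg in its second arrest, stood at 370.1 CPM (interval 358 to 382) in members and had 4 UMIs in all germ cells of E85 and E105. IZUMO1R, the egg receptor for the sperm protein IZUMO1, stood at 629 CPM (interval 613 to 644) and had 0 UMIs in those germ cells, which makes it at least 1306-fold higher against a floor of 3 UMIs over the group. CD9, a tetraspanin of the egg surface needed for sperm fusion, ran the other way, at 5.93 CPM against 109 CPM, 18.4-fold lower (interval 14.1 to 24.3). IZUMO1R and CD9 were the 2 measured genes of the 5 with a symbol on the list of egg surface and fertilisation. CCNB2, a mitotic and meiotic cyclin, stood at 221 CPM against 57.5 CPM. AURKA, a spindle kinase, stood at 915 CPM against 86.7 CPM, 10.6-fold higher (interval 9.68 to 11.5). CDK1, the kinase partner of CCNB2, was at only 2.72 CPM in members, and TOP2A, a gene of dividing cells, was 9.26-fold lower (interval 8.002 to 10.8). Of the 4 measured genes of the list of meiotic arrest and maturation, MOS and CCNB2 were higher and none was lower, with a median log2 ratio of 1.37. On the list of division genes (G2/M), 8 were measured, of which AURKA and CCNB2 were higher and CENPE, KIF11 and TOP2A lower, with a median log2 ratio of -0.86.

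Meiotic chromosome genes differed among themselves. REC8, the meiotic cohesin subunit, stood at 778 CPM (interval 761 to 795) in members against 76.9 CPM in the germ cells, 10.1-fold higher (interval 9.23 to 11.1). Per barcode, REC8 had a lowest, median and highest value of 143, 598 and 1047 CPM in the middle class and 275, 793 and 1487 CPM in the large class, which overlapped. SMC1B, another meiotic cohesin subunit, was present in both cell types, at 251 and 383 CPM.

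Several genes of meiotic entry, strand breaks and synapsis were low. SYCP1, the transverse filament protein of the synaptonemal complex, was 14.4-fold lower (interval 11.95 to 17.4), at 12.2 CPM, close to the 18.8 CPM of the rest of the library. DMC1, the meiotic strand-exchange protein, was at 0.486 CPM in members against 39 CPM. STRA8, which starts meiosis, was at 0.874 CPM and SPO11, which makes the strand breaks, at 0.389 CPM. Of the axis and synapsis list, 5 of 13 genes with a symbol were measured, 1 higher (REC8) and 2 lower (SYCP1 and SYCP2), with a median log2 ratio of -0.61. Of the entry and recombination list, 4 of 15 were measured, of which SPATA22 was the 1 gene lower.

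Other oocyte programmes were thinly covered. Of 10 genes of growth control with a symbol, such as TSC2, a brake on the growth kinase MTOR, and CDKN1B, a cell-cycle inhibitor, 2 were measured and neither differed by 2-fold. TSC2 stood at 95.3 CPM in members against 80.6 CPM in the germ cells, and CDKN1B at 89.5 against 48.9 CPM. Of 11 RNA storage genes 3 were measured, with IGF2BP3 higher and DAZL and DDX6 lower, and YBX2, an mRNA-packing protein of germ cells, stood at 6.51 CPM. Of 8 DNA methylation genes 3 were measured, with TET2 higher. Of 9 junction genes 3 were measured, with GJC1, a gap junction protein, and ITGB1, an integrin, lower, and GJA4, the oocyte connexin, stood at 10.1 CPM. Of 10 survival genes 1 was measured and it did not differ by 2-fold, and TP63, which guards oocyte DNA, stood at 1.65 CPM. Of 5 measured histone and chromatin genes H1-8 and NPM2 were higher and none was lower (median log2 ratio -0.11), and of 8 cohesin and spindle genes AURKA and REC8 were higher and RAD21 and SMC3 lower (median -0.69).

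Core germ cell genes were present in the members but below the level of the earlier germ cells. The germ-line helicase gene DDX4 stood at 112 CPM (interval 105.5 to 118) against 428 CPM, and DAZL, a germ-line RNA-binding protein, at 102 CPM (interval 95.6 to 108) against 434 CPM. These 2 genes chose the germ cells of E85 and E105, so their difference is set in part by that choice. All 73 barcodes of the library labelled E125 that met the germ cell rule were members: 2 of 38 small, 34 of 37 middle and 37 of 37 large. MAEL, a piRNA pathway protein, was closer, at 366 against 564 CPM. Of 16 core genes with a symbol, 11 were measured, none was higher and 9 were lower, with a median log2 ratio of -2.01. Over all measured genes 31.3% were lower. Apart from DDX4 and DAZL, the lower core genes were under 50 CPM in members and entered through the germ cells. The filter thus fixed their direction, and the count is a description.

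Genes of the male germ line and of pluripotency ranged from 0 to high levels in the members. PIWIL4, a piRNA-binding protein of fetal male germ cells, stood at 2.72 CPM (interval 1.81 to 3.93) against 127 CPM, 46.8-fold lower (interval 32.1 to 70.9). MORC1, which silences transposons in the male germ line, stood at 11.9 against 360.1 CPM, 30.4-fold lower (interval 25.3 to 36.8). DMRT1, a factor of male germ and Sertoli cells, stood at 42.1 against 796 CPM, and at 0.925 CPM in the rest of the library. NANOS2, NANOS3, NANOG and PRDM14 had 0 UMIs in members, and among them PRDM14, an early germ cell factor, stood at 46.5 CPM in the germ cells. SALL4, a factor of germ and stem cells, went the other way, at 309.8 CPM against 157 CPM. POU5F1, a pluripotency factor, stood at 19.4 CPM (interval 16.8 to 22.3) in members, 13.5 CPM in the germ cells and 0.396 CPM in the rest of the library. Of 9 male germ genes and 11 pluripotency and early germ genes with a symbol, 3 of each list were measured. Of these, 2 of each list were lower (MORC1 and PIWIL4, KLF4 and PRDM1) and none was higher. The lower genes were under 50 CPM in members and entered through the germ cells, so the filter fixed their direction.

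Over all genes, members and the germ cells of E85 and E105 differed widely: 791 of 3075 measured genes were higher in members and 964 lower. The 10 genes with the firmest higher ratios were ZP3, IZUMO1R, ZP4, ZP2, FIGLA, KISS1, MOS, ACTL7B, H2BE1 and CCNO. ZP3 and FIGLA chose the members, so their places in this ranking are set in part by that choice. KISS1, which encodes the kisspeptin peptides, stood at 191 CPM (interval 182 to 199) in members and had 0 UMIs in the germ cells, which makes it at least 396-fold higher. CCNO, a cyclin-like protein of oocytes and ciliated cells, was 270.4-fold higher (interval 182 to 422). H2BE1 belongs to the histone family, whose near-identical copies the counting may have split. Among genes no higher in the other barcodes of E85 and E105 than in their germ cells, which left out 618 measured genes, the 10 firmest lower were DUSP4, ZDBF2, ATP2A3, CD44, IGDCC3, TGFB1, TUBB2B, ZNF280C, HOXC10 and GATA3. DUSP4, a phosphatase that acts on MAP kinases, had 0 UMIs in members against 99.8 CPM, at least 342-fold lower, and CD44, a hyaluronan receptor, was 226-fold lower (interval 96.2 to 697).

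Within the library labelled E125, 272 of 2175 genes at 50 CPM or more in members were at least 10 times the level of the rest of the library. By level, the 15 first were ZP3, FIGLA, CD164L2, RBM42, NT5DC2, ZP4, NDUFB9, NR1H2, UCHL1, F2, FOXR1, CARS2, PCBD1, GEMIN8 and TBC1D1. The places of ZP3 and FIGLA here too are set in part by the choice of members. F2 is the prothrombin gene, known from liver, and it stood at 1294 CPM (interval 1273 to 1317) in members against 13.4 CPM in the rest and 10.9 CPM in the germ cells. FOXR1, a forkhead factor, stood at 1279.8 CPM (interval 1258 to 1302) against 10.9 CPM in the rest. F2 had a UMI in 104 of 112 members and FOXR1 in 109 of 112. NR1H2, the liver X receptor beta, stood at 1592 against 88.4 CPM. These levels count 3′ ends and depend on where the annotation ends each gene.

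By size, the large class was first set against the small class, where 116 of 2791 measured genes (4.16%) were higher and 472 (16.9%) lower, with a median log2 ratio of -0.16. The stored and zona genes stayed within 2-fold: of 10 measured maternal-effect genes none was higher or lower, with a median log2 ratio of 0.29. ZP4 was 1.19-fold higher (interval 1.06 to 1.35) and ZP2 1.29-fold higher (interval 0.986 to 1.71) in the large class. CRABP1, a retinoic acid-binding protein, was 3.54-fold higher (interval 2.20 to 6.08) in the large class, at 344 against 97.2 CPM. PSMA4, a proteasome subunit, was 2.75-fold higher (interval 1.95 to 3.996), at 518 against 189 CPM. The other 8 of the firmest higher genes were BCL2L12, MACROD1, SNW1, H2BE1, FAM229B, CHCHD7, CYFIP2 and CEP164, of which BCL2L12 and CHCHD7 each rest on 1 UMI in the small class. A single small barcode held 29026 of the 174820 UMIs of its class, with 7 FIGLA UMIs and 0 of H1-8, NPM2 and OOEP. Setting 80000 UMIs or more against under 20000, which leaves that barcode out, gave 89 higher and 254 lower genes of 2587 (3.44% and 9.82%).

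Genes lower in the large class were ranked among those whose level in the rest of the library was not above that in the small class, which left out 761 measured genes. MYH9, a non-muscle myosin, came first of these, 9.17-fold lower (interval 6.79 to 12.2), at 36.8 against 337 CPM. MYH9 stood at 253 UMIs in the large class and 59 in the small class. NID2, a basement membrane protein, was 11.4-fold lower (interval 6.36 to 19.6) and stood at 103 CPM in the small class. AHNAK, a large scaffold protein among the genes left out and named after its values were seen, was 22.5-fold lower (interval 14.1 to 35.3). The other 8 firmest of the ranked genes were AOX1, MMRN1, MTREX, EXPH5, ENC1, NTRK2, AK5 and ADGRV1, all with 10 to 27 UMIs in the small class. TET1 and TET2, enzymes that oxidise methylated DNA, were the 2 of 4 measured DNA methylation genes that were lower in the large class, TET2 at 149 CPM in the small class and 41.9 CPM in the large. In the rest of the library TET1 stood at 143 CPM and TET2 at 145 CPM, and their part as RNA from other cells was not tested.

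Other listed genes that passed 2-fold in this comparison were few. SYCE3, a protein of the synaptonemal complex, was 2.73-fold higher (interval 1.06 to 10.1) in the large class, on 4 UMIs in the small class. KIT was 2.76-fold lower (interval 2.03 to 3.68) in the large class. The small member with most KIT UMIs held 19, in a total of 29026 UMIs, and the next held 6. The interval does not cover such spread between barcodes. DDX6, a helicase that stores and silences mRNA, was 2.48-fold lower (interval 1.91 to 3.17). ITPR1, the calcium channel that acts at egg activation, and NUMA1, a spindle protein, were also lower in the large class. Measured medians on the log2 scale were -0.67 for the 5 histone and chromatin genes, -0.19 for the 8 cohesin and spindle genes and 0.09 for the 6 division genes, of which none was higher. KRT7, WT1, ITGA6, MYH11 and DUSP1, genes of epithelium, gonadal mesothelium, adhesion, smooth muscle and dissociation stress, were lower in the large class by sums of UMIs. KRT7 and DUSP1 had the opposite direction as a mean over barcodes, at ratios of 1.27 and 1.04. All of these but WT1 had the opposite direction without the 11 members of highest somatic share, at ratios from 1.16 for MYH11 to 1.83 for KRT7. That share counts UMIs of KRT7, WT1 and MYH11 themselves, and 7 of the 11 were small and 4 middle. For these genes the ratios without the 11 are thus set in part by that choice.

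Markers of stromal cells moved with this comparison. All 5 stromal genes measured (COL1A1, COL1A2, DCN, NR2F2 and TCF21, of 9 with a symbol) were lower in the large class, with a median log2 ratio of -3.28. COL1A2, a collagen chain of stroma, stood at 126, 4.63 and 4.22 CPM in the small, middle and large classes, against 654 CPM in the rest of the library. DCN, the stromal proteoglycan decorin, stood at 229, 141 and 81.5 CPM, against 1725 CPM in the rest. The share of a small member's UMIs from the stroma list ran from 0% through a median of 0% to 1.33%. A DCN UMI was found in 11 of 38 small members and a COL1A2 UMI in 5 of 38. In the small class, 1 member of 3757 UMIs held 17 COL1A2 and 16 DCN UMIs, and the next highest held 2 and 9. The COL1A2 level of the small class thus rests largely on that barcode. At 2000 UMIs per barcode DCN had a UMI in 29.6%, 13.5% and 18.9% of the small, middle and large members, against 20.3% of the endothelial barcodes. Leaving out the 11 members of highest somatic share, of which 7 were small and 4 middle, left 1 measured stromal gene, DCN, at a log2 ratio of 0.69 in the large class, the opposite direction. The stromal genes count in that share, so this value is set in part by the choice of members left out. The part of stromal RNA in the other differences between large and small members was not tested.

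Large and middle members, which both had deep coverage, differed little. Of 2369 measured genes 8 (0.338%) were higher in the large class and 42 (1.77%) lower, and the median log2 ratio was -0.02. MYH11 was the 1 gene of the somatic lists among those lower, 2.47-fold lower (interval 2.10 to 2.92). The 10 maternal-effect genes had a median log2 ratio of 0.34 and the 4 measured genes of meiotic arrest and maturation 0.48, and none of these 14 reached 2-fold. ZP4 was 1.63-fold higher (interval 1.57 to 1.69) in the large class. ZP2 was 2.01-fold higher (interval 1.85 to 2.19), at 405 against 201 CPM. HES7, a transcriptional repressor of the NOTCH pathway, was 2.22-fold higher (interval 1.98 to 2.49), at 245 against 111 CPM. KPNA7, an importin of oocytes and early embryos, was 2.03-fold higher (interval 1.86 to 2.21), and TAC3, the neurokinin B gene, was 1.85-fold higher (interval 1.71 to 2.01).

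Ranked with the same limit, which left out 616 measured genes, the first gene lower in the large than in the middle class was COL8A1, a collagen chain, 3.12-fold lower (interval 2.48 to 3.92), at 18.9 against 58.9 CPM. IGFBP2, a secreted binder of insulin-like growth factors, was 2.24-fold lower (interval 2.12 to 2.36), at 402 against 901 CPM. NR1H4, the bile acid receptor, was 2.16-fold lower (interval 1.90 to 2.46). KIT, the receptor through which granulosa cells act on the oocyte, was 1.84-fold lower (interval 1.65 to 2.05), short of 2-fold. Its levels were 286, 191 and 104 CPM in the small, middle and large classes. The small-class level includes 19 KIT UMIs from the barcode of 29026 UMIs. KIT ranked in these 10 because its interval lay far from 1. The count of genes lower in the large class was 26 without the 11 members of highest somatic share.

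**Figure D4:**
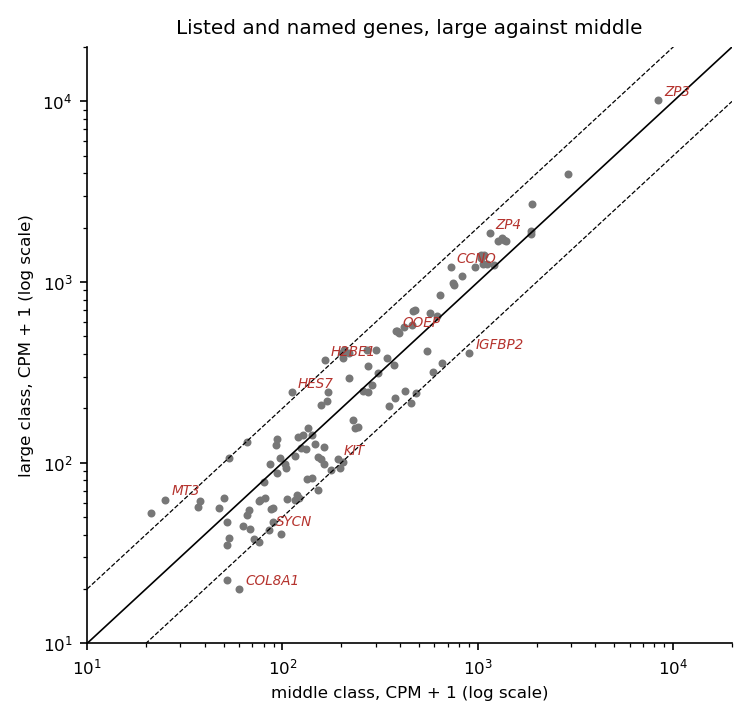
Summed CPM + 1 of the listed and named genes measured in the comparison of the large with the middle class (log scales), with the line of equality and dashed lines at 2-fold. HES7 and MT3 lie above the upper dashed line, IGFBP2, SYCN and COL8A1 below the lower one, and most genes lie between them.

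The middle and large members also varied among themselves in ways that size did not fully follow. KIT ran from 24.7 to 973 CPM over these 74 members, and 12 members had 300 CPM or more, all of them in the middle class at 31784 to 86910 UMIs. This limit was set after the values were seen, and 4 members lay between 250 and 350 CPM. The 12 members had a median mitochondrial share of 9.005%, against 1.94% in the other 62, with ranges of 2.71% to 16.4% and 0.208% to 6.20%. CENPF, a kinetochore protein, had a median of 1203 CPM in the 12 and 332 CPM in the 62. OOEP had medians of 174 and 492 CPM in the same order, and LHX8, with 527 and 609 CPM, was close in both. The part of the mitochondrial share in these differences was not tested.

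IGFBP2 split the larger members in another way. It was under 100 CPM in 8 of the 74, of which 5 were large, and from 111 to 2943 CPM in the other 66. This limit too was set after the values were seen, and 1 member lay between 75 and 150 CPM. SPARC, a secreted matrix protein, ran from 6.96 to 45.3 CPM in the 8 and from 47.6 to 1781 CPM in the 66, so the groups did not overlap. SYCN, a protein of secretory granules, had no UMI in any of the 8 and a median of 49.9 CPM in the 66. Total UMIs overlapped, at medians of 135238 and 128314, and LHX8 had medians of 899.9 and 588 CPM. In the rest of the library SPARC stood at 1778 CPM and IGFBP2 at 604 CPM, and their part as RNA from other cells was not tested.

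**Figure D5:**
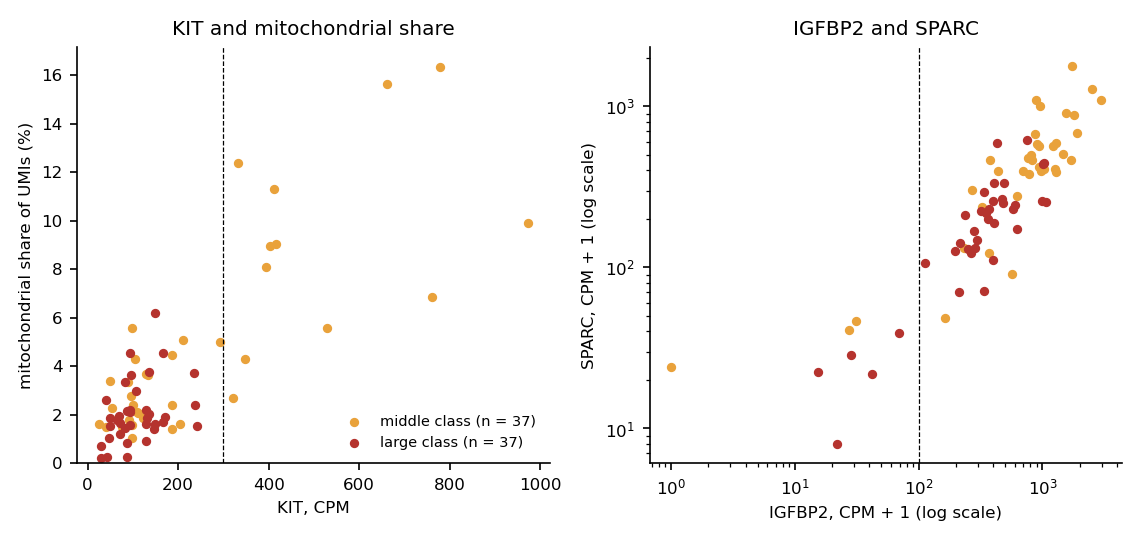
Left, mitochondrial share of UMIs against KIT in CPM for the 74 middle and large oocyte-like barcodes, dashed line at 300 CPM; right, SPARC against IGFBP2, each as CPM + 1 on log scales, dashed line at 100 CPM. The 12 barcodes right of the KIT line are all of the middle class, and the 8 barcodes left of the IGFBP2 line have the lowest SPARC levels.

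Genes of other gonadal cell types were low in the members. FST stood at 4.96 CPM (interval 3.69 to 6.51) in members against 2613 CPM in the FST-rich barcodes, and 0 of the 112 members would have met the FST rule. CDH5, an endothelial cadherin, was at 0.194 CPM against 112 CPM in endothelial barcodes. PTPRC, the leukocyte antigen CD45, was at 0.68 CPM. The 8 somatic lists without keratins (pregranulosa, stroma, endothelial, macrophage, lymphoid, mural, mesothelial and Schwann) made up a median of 0.0457%, 0.0691% and 0.0395% of a member's UMIs in the small, middle and large classes. The highest share of a single member was 1.38%, in the small class, against 0.188% and 0.0818% in the middle and large classes.

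Among genes on those lists, keratins were an exception. KRT19 and KRT7, epithelial filament proteins, stood at 256 and 184 CPM in members, above 21.98 and 43.8 CPM in the rest of the library. CSF1R, the macrophage receptor for CSF1, stood at 11.4 CPM (interval 9.40 to 13.6) in members, and the 7 other macrophage genes were at 0.291 CPM or less. STAR, the cholesterol carrier of steroid-making cells, stood at 136 CPM (interval 129 to 144) in members against 7.61 CPM in the rest, while LHCGR and INSL3, further Leydig cell genes, had 0 UMIs. Of the Sertoli genes, SOX8 and DHH had 0 UMIs in members and AMH stood at 0.486 CPM. DMRT1, INHA and SOX9, also on the Sertoli list, stood at 42.1, 28.6 and 10.2 CPM in members. In the rest of the library these genes stood at 0.925, 56.9 and 29.0 CPM.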

How the data were processed

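The deposited matrices hold raw UMI counts, made by the authors and without normalization. Per the submitters' processing notes they were made with Cell Ranger 3.1, while the file headers name version 6.0.0. Which genome build and annotation were used is not given in the sources used here. Of 27271 features 16616 had a symbol, and genes were found by symbol only.

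The members and the 31 gene lists were chosen with earlier results of these data known. Counts were summed over the barcodes of a class and divided by all UMIs of the class. A gene was measured at 50 CPM or more in either class if its symbol was unique and it was not a ribosomal-protein, mitochondrial or haemoglobin gene. Exact 95% intervals are Poisson for levels, Clopper-Pearson for shares and a binomial split of the summed counts for ratios. A class with 0 UMIs was set to 3 UMIs over the class, giving a bound. The size classes divide the members, ranked by total UMIs, into 3 groups, and the comparison of the large with the middle class was added after the data were seen. Named genes are up to 8 list members by UMIs, list members with a 2-fold difference by size, the 10 genes in each direction whose interval bound lay farthest from 1 and whose level was not below that of the remaining barcodes, and the 15 highest genes at 10 times the rest of the library. For list members that met only the first part, most lists are given as counts. The germ cells were compared as the sum of both libraries. The comparison was tested on simulated counts with counting error only. They held no spread between barcodes, so that run does not bear on such spread in these data. Scripts ran in Python 3.11.15 with numpy 2.4.6 and scipy 1.17.1. Features without a symbol, which held 32.2% of the members' UMIs, were not analysed here. Some genes of the lists are not reported here.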

Additional observations from a re-analysis of the deposited data

How the results depend on the processing

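No paired analysis was possible because every library is labelled replicate 1, each stage has 1 library and no test was run. The member count stayed from 89 to 123 and the median UMIs from 73652 to 122246 under the 8 other limits on ZP3, FIGLA, UMIs and mitochondrial share. With a filter of 20 CPM in place of 50, the genes higher and lower in large than in small members numbered 271 and 1161, those in large against middle members 17 and 107, and those lower in members than in the germ cells 1774. With 200 CPM the same counts were 30 and 52, 4 and 6, and 205, and 283 genes were higher in members than in the germ cells, because fewer genes were measured. Large against small members gave 193 higher genes with ratios centred on the median of all genes, 56 with members halved at the median of UMIs, and 254 lower genes for 80000 UMIs or more against under 20000. Large against middle members gave 13 higher and 111 lower genes as a mean over barcodes, 3 higher without the 11 largest members and 26 lower without the 11 of highest somatic share, and the cause was not tested.

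List medians on the log2 scale also moved. In large against small members, meiotic arrest genes gave 0.74 with members halved and histone genes 0.35 at 200 CPM. Cohesin genes gave 0.41 in large against middle members at 200 CPM. Against the germ cells, maternal-effect genes gave 3.80 as a mean over barcodes, 3.73 without the 11 largest members and 3.65 after thinning. Histone genes gave 3.88 at 200 CPM and 1.57 against E105 alone, and division genes 0.57 at 200 CPM.

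Some genes changed direction between large and small members, given here as ratios. Without the 11 members of highest somatic share DCN was at 1.61, DUSP1 at 1.72, ITGA6 at 1.35, KRT7 at 1.83, MYH11 at 1.16 and NR2F2 at 1.37. DCN, KRT7, MYH11 and NR2F2 count in that share, so their ratios are set in part by the choice of members left out. As a mean over barcodes DUSP1 was at 1.04 and KRT7 at 1.27. For 80000 UMIs or more against under 20000, DUSP1 was at 2.29, ITGA6 at 1.66 and KRT7 at 1.56, and with members halved CEP164 was at 0.943. Of the 38 named genes past 2-fold in large against small members, 14 stayed past it in all 8 alternatives, as did 6 of 15 in large against middle members over 6 and 70 of 72 against the germ cells over 10. The stromal list had 1 gene measured without the 11 members of highest somatic share and 2 with members halved, none past 2-fold. The small class, with 174820 UMIs, limits the precision of every ratio against it.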

Other observations

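Several genes higher in the members than in the rest of the library are better known from other tissues. GH1, the growth hormone gene, had a UMI in 55 of 112 members and stood at 41.4 CPM (interval 37.6 to 45.5), against 0.766 CPM in the rest of the library labelled E125. GH1 was 2.54-fold higher in large than in middle members (interval 1.95 to 3.35). TAC3, the neurokinin B gene, had a UMI in 98 of 112 members and stood at 346 CPM, against 16.0 CPM in the rest and 1.60 CPM in the germ cells of E85 and E105. KISS1, the kisspeptin gene, had a UMI in 91 of 112 members. ACTL7B, an actin-related gene known from spermatids, had a UMI in 81 of 112 members and stood at 131 CPM, against 1.22 CPM in the rest and 0 UMIs in the germ cells. TIMD4, a phosphatidylserine receptor known from macrophages, stood at 323 CPM in members and 5.15 CPM in the rest, while the macrophage genes C1QC, TYROBP and CD163 had 0 UMIs in members.

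Across the 74 middle and large members, JAG1, a NOTCH ligand, ran most like KIT among 2175 genes (Spearman rho 0.81), and FIGLA ran most against it (rho -0.72). RARRES2, which encodes chemerin, and TIMP2, a protease inhibitor, ran most like IGFBP2 (rho 0.91 and 0.89), and ADAD1, a germ-cell RNA-binding protein, ran most against it (rho -0.62). These genes also followed total UMIs over the same 74 members. KIT and JAG1 fell with total UMIs (rho -0.56 for each) and FIGLA rose (rho 0.65). IGFBP2, RARRES2 and TIMP2 fell (rho -0.39, -0.43 and -0.41) and ADAD1 rose (rho 0.58). Whether the genes are related apart from size was not tested. All members share 1 library, FIGLA was used in choosing them, and these relations were picked after the values were seen, so they are a description.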
